A study of Arabidopsis thaliana with 24 samples.

Results

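Aquaporins are the membrane channels through which water and small uncharged solutes cross plant membranes. All 35 aquaporin genes of Arabidopsis thaliana were followed through leaf dehydration, of 27664 genes listed. They were taken as a whole family by locus identifier, but the family was chosen with earlier results of these data known. Of its 4 subfamilies, the largest is the 13 plasma membrane intrinsic proteins (PIP, with 5 in the PIP1 and 8 in the PIP2 group). The others are 10 tonoplast intrinsic proteins (TIP), 9 NOD26-like intrinsic proteins (NIP) and 3 small basic intrinsic proteins (SIP). Members are written with a hyphen here, so that PIP1-4 is the gene usually printed as PIP1;4. Of the 35, 24 passed the filter on low counts and were tested, and the other 11 had too few counts.

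Rosette leaves of 24-day-old plants, raised for 12 days on plates of 1/2 MS medium and then 12 days on soil, were sequenced from the grf6 grf8 double mutant and the wild type (WT). The mutated genes belong to the 14-3-3 family, whose products bind other proteins at phosphorylated residues. Leaves were frozen at 0 h, or after drying for 2 h or 4 h, and every combination of genotype and time has 4 libraries, which makes 24. The labels number the libraries within a group without saying whether they came from separate plants, so the p-values measure the spread between these libraries, which may be technical. The mutant is 1 double mutant combination whose alleles the labels do not give. Undehydrated leaves of 2 or 4 h are not analysed here, so dehydration and time of day cannot be told apart.

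Aquaporins assemble as tetramers in which each subunit forms its own pore. In leaves, PIPs in the plasma membrane and TIPs in the vacuolar membrane carry most water across cells, NIPs are known for carrying metalloids such as boric acid, and SIPs reside in the endoplasmic reticulum. PIP2 proteins are strong water channels by themselves, whereas PIP1 proteins often need a PIP2 partner to reach the plasma membrane. 14-3-3 proteins GRF4 and GRF10 are known to act on phosphorylated PIP2-1, the channel most studied in leaf hydraulics.

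The 250 bases before the annotated gene start are shown for 4 members because the results turn on their contrast: PIP1-4 and TIP1-1, whose transcripts rose steeply on dehydration, and PIP1-5 and TIP1-2, a relative of each, whose transcripts fell. The sequences are those of RefSeq build TAIR10.1 on the gene's strand, for PIP1-4 at chr4:187681-187930, minus strand, for PIP1-5 at chr4:12220391-12220640, plus strand, for TIP1-1 at chr2:15445044-15445293, plus strand and for TIP1-2 at chr3:9723905-9724154, minus strand. Capitals mark matches on either strand to the core of the abscisic acid response element (ABRE, ACGTG), the dehydration response element (DRE, ACCGAC or GCCGAC), the evening element (AATATC) and the W-box (TTGAC). No match overlaps another in these windows.
PIP1-4: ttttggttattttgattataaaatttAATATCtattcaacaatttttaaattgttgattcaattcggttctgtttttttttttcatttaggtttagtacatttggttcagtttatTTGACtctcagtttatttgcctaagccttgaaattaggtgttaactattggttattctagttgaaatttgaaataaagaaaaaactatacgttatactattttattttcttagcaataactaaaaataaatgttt
PIP1-5: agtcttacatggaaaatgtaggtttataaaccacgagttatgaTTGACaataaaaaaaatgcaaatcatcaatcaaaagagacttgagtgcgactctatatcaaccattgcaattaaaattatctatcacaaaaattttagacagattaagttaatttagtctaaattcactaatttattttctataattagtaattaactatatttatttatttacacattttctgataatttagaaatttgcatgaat
TIP1-1: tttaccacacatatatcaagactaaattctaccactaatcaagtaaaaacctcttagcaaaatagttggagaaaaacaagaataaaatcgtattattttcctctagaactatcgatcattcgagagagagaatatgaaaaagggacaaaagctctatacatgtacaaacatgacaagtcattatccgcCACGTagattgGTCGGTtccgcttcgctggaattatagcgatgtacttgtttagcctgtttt
TIP1-2: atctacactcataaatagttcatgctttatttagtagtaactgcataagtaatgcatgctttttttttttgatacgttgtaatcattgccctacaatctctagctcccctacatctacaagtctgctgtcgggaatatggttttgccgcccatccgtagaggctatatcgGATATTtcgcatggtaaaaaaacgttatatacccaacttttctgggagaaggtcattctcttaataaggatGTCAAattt
TIP1-1, known as gamma-TIP, held an ABRE core at -62 and a DRE core at -51 from the gene start. PIP1-4 held neither in this window, but an evening element core at -224 and a W-box core at -135. PIP1-5 held a W-box core at -207, and TIP1-2 held an evening element core at -80 and a W-box core at -9. Over the family, an ABRE core lay in 4 of 35 windows (TIP1-1, TIP3-1, TIP5-1 and SIP1-1), against 22.9% of the same windows at 27443 genes. A DRE core lay in 2 of 35 (PIP2-5 and TIP1-1) against 7.09%, an evening element core in 12 of 35 against 24.8%, and a W-box core in 19 of 35 against 44.9%. These are matches of letters in a short window and do not show binding.

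Library totals ran from 17.4 to 22.4 M counts. Levels are given as CPM, counts per M library counts after scaling between libraries, and a gene is called changed at a Benjamini-Hochberg adjusted p under 0.05 in the edgeR quasi-likelihood test. GRF6 averaged 307 ± 75.5, 77.7 ± 12.7 and 49.2 ± 9.81 CPM at 0, 2 and 4 h in grf6 grf8 leaves, against 1572 ± 195, 734 ± 160.1 and 598 ± 203 CPM in WT leaves (SD, n = 4 each). GRF8 averaged 83.0, 84.9 and 57.3 CPM in grf6 grf8 leaves and 290.0, 122 and 106 CPM in WT leaves. GRF6 was called lower in the mutant at every time and GRF8 only at 0 h (edgeR adjusted p = 1.75e-05 at 0 h, 1.0 at 2 h and 0.173 at 4 h). All 6 dehydration markers, such as RD29A and RAB18, were called higher at 2 and 4 h in both genotypes. The summed level of 4 mesophyll markers, which encode photosynthesis proteins, ran from 12650 to 52870 CPM in grf6 grf8 leaves and from 5652 to 53240 CPM in WT leaves, lowest at 4 h, and its part in the members' changes was not tested. Of these 4, 1 was called lower at 2 h and 4 at 4 h in grf6 grf8, and 4 at both times in WT. Epidermis markers summed to 106.9 to 213.6, 228.4 to 344.1 and 207.3 to 229.8 CPM at 0, 2 and 4 h in grf6 grf8, and to 101.1 to 142.8, 219.7 to 369.3 and 158.0 to 346.1 CPM in WT. Of these 4 genes, 1 was called higher at 2 h, and 2 higher and 1 lower at 4 h, in each genotype. Vasculature markers summed to 206.7 to 359.5, 92.28 to 250.3 and 176.8 to 274.1 CPM in grf6 grf8, and to 185.5 to 280.2, 136.1 to 202.8 and 224.8 to 292.8 CPM in WT. Of these 7 genes, 0 were called higher and 2 lower at 2 h and 3 higher and 3 lower at 4 h in grf6 grf8, and 1 and 2 at 2 h and 3 and 2 at 4 h in WT. Guard cell markers summed to 22.27 to 87.74 CPM over all libraries, with 2 of the 5 tested called lower in each comparison with 0 h, and pollen markers to 0.759 to 29.45 CPM, with at most 1 of the 3 tested called. The part of these markers in the members' changes was not tested. Markers of roots summed to at most 0.221 CPM and those of seeds were at 0 in every library. Markers of dividing cells stood high in 5 libraries, which are taken up with the members they move with.

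In dehydrated leaves of both genotypes the level of most tested aquaporin transcripts changed. Of the 24 tested members, 13 rose and 4 fell at 2 h in grf6 grf8, and 14 rose and 4 fell in WT. At 4 h the counts were again 13 and 4 in grf6 grf8, and 14 and 4 in WT. These include TIP2-3, SIP1-2 and, where called, NIP2-1, which passed the filter mainly through the times at which they stood high. TIP2-3 had no count at 0 h, NIP2-1 reached at most 0.487 CPM before 4 h, and SIP1-2 at most 0.665 CPM after 0 h. Their direction was thus largely fixed by how they came to be tested, here and in the counts below. Most PIP1 and PIP2 genes, TIP1-1 and TIP2-2 rose, while PIP1-5, TIP1-2, TIP2-1 and SIP1-2 fell. In whole leaves, fewer cells of a type and less RNA per cell cannot be told apart.

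Of all 18841 genes tested, 43.5% were called at 2 h in grf6 grf8 (23.2% higher and 20.3% lower) and 42.3% in WT (23.1% higher and 19.2% lower), against 17 and 18 of the 24 members. At 4 h 51.2% of all genes were called in grf6 grf8 (28.1% higher and 23.1% lower) and 50.0% in WT (27.8% higher and 22.2% lower), against again 17 and 18 of the members. The members' median log2 fold change was 0.85 at 2 h and 0.93 at 4 h in grf6 grf8, and 1.29 and 1.63 in WT. The medians of all genes lay between 0.01 and 0.07 in these 4 comparisons. Both genotypes called 12 of the same members higher and 4 lower at 2 h, and 13 higher and 4 lower at 4 h. Calls differed for PIP2-6, NIP2-1 and SIP2-1 at 2 h and for PIP2-7 at 4 h. The 2 h and 4 h comparisons of a genotype share its 0 h libraries.

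**Figure D1:**
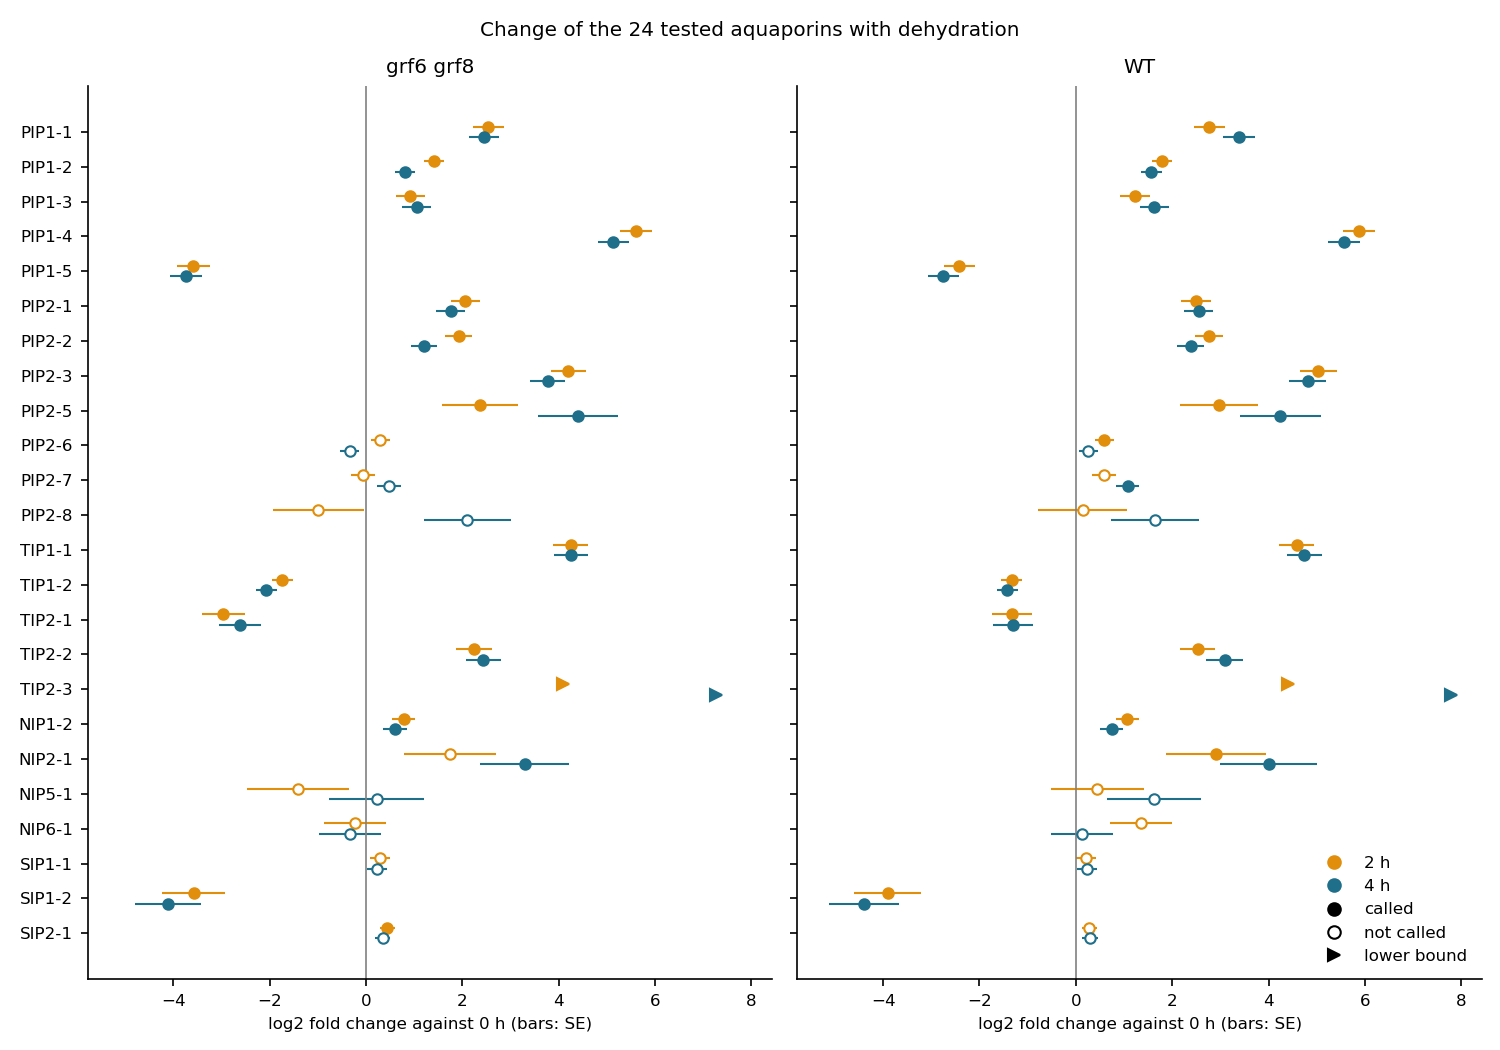
Log2 fold change against 0 h of the 24 tested aquaporins at 2 h (orange) and 4 h (blue) of dehydration, in grf6 grf8 leaves on the left and WT leaves on the right. Bars are SE, filled symbols were called at an adjusted p under 0.05 and triangles are lower bounds for TIP2-3, which had no count at 0 h. PIP1-4 lies farthest to the right among the members with counts at 0 h, at 5.61 and 5.13 in grf6 grf8 and 5.87 and 5.57 in WT, and PIP1-5 and SIP1-2 lie farthest to the left.

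The PIP1 group split the same way in all 4 comparisons, with PIP1-1, PIP1-2, PIP1-3 and PIP1-4 higher and PIP1-5 lower. PIP1-4 (AT4G00430, chr4:185285-187680 in TAIR10.1), a channel also known to carry hydrogen peroxide, gave the largest fold change in the group. The grf6 grf8 libraries held 39.2, 41.4, 25.02 and 26.2 CPM at 0 h, 1675, 1809, 1272 and 1697 CPM at 2 h and 916, 1254, 1446 and 1017 CPM at 4 h. The WT libraries held 24.5, 46.0, 21.2 and 25.3 CPM at 0 h, 1969, 1840.1, 2055 and 992 CPM at 2 h and 1606, 1646, 892 and 1425 CPM at 4 h. Every dehydrated library stood above all 8 libraries of 0 h by more than the whole range of the 0 h values. In grf6 grf8 the log2 fold change was 5.61 ± 0.33 (SE, edgeR adjusted p = 1.85e-10) at 2 h and 5.13 ± 0.33 (SE, edgeR adjusted p = 1.87e-10) at 4 h. In WT it was 5.87 ± 0.34 (SE, edgeR adjusted p = 9.73e-11) at 2 h and 5.57 ± 0.33 (SE, edgeR adjusted p = 7.55e-11) at 4 h. These values rank PIP1-4 number 81 and 277 from the top of all 18841 genes at 2 and 4 h in grf6 grf8, and 82 and 221 in WT.

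PIP1-5 (AT4G23400, chr4:12220641-12222468) went the other way. It had 225, 287, 212 and 416 CPM at 0 h, 26.1, 22.9, 28.8 and 17.1 CPM at 2 h and 16.0, 18.9, 20.9 and 29.9 CPM at 4 h in grf6 grf8 leaves. In WT leaves it had 154, 180.1, 116 and 227 CPM at 0 h, 49.1, 22.7, 20.4 and 34.0 CPM at 2 h and 25.4, 39.7, 18.2 and 17.5 CPM at 4 h. All 16 dehydrated libraries stood below all 8 of 0 h. On the log2 scale it changed by -3.59 ± 0.34 (SE, edgeR adjusted p = 6.84e-08) at 2 h and -3.74 ± 0.34 (SE, edgeR adjusted p = 2.19e-08) at 4 h in grf6 grf8. The same changes were -2.42 ± 0.32 (SE, edgeR adjusted p = 4.76e-06) and -2.75 ± 0.33 (SE, edgeR adjusted p = 7.69e-07) in WT. At 0 h the ranges of the genotypes overlapped, with grf6 grf8 reaching higher.

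PIP1-1 (AT3G61430, chr3:22733243-22735394) and PIP1-2 (AT2G45960, chr2:18910081-18911982), a major PIP1 of roots and leaves also studied for CO2 transport, both rose. For PIP1-1 the grf6 grf8 values were 127, 134, 160.2 and 193 CPM at 0 h, 1188, 827, 765 and 794 CPM at 2 h and 501, 742, 920.4 and 1206 CPM at 4 h. Its WT values were 97.4, 111, 97.5 and 137 CPM at 0 h, 1200.4, 624, 751 and 451 CPM at 2 h and 1413, 1609.9, 787 and 824 CPM at 4 h. No dehydrated library overlapped with 0 h in either genotype, and the first grf6 grf8 library of 2 h stood above the other 3 of its group. The log2 fold changes of PIP1-1 were 2.54 ± 0.32 (SE, edgeR adjusted p = 2.07e-06) and 2.46 ± 0.31 (SE, edgeR adjusted p = 1.71e-06) in grf6 grf8. They were 2.77 ± 0.32 (SE, edgeR adjusted p = 7.26e-07) and 3.39 ± 0.33 (SE, edgeR adjusted p = 4.69e-08) in WT.

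PIP1-2 measured 556, 681, 654 and 760.4 CPM at 0 h, 2123, 1748, 1620.3 and 1563 CPM at 2 h and 894, 1158, 1278 and 1307 CPM at 4 h in grf6 grf8 leaves. It measured 390.1, 504, 478 and 588 CPM at 0 h, 2106, 1659, 1526 and 1476 CPM at 2 h and 1734, 1938, 974.95 and 1169 CPM at 4 h in WT leaves. The 2 h libraries were the highest of each genotype on average, and none overlapped with 0 h. In grf6 grf8 PIP1-2 changed by 1.41 ± 0.21 (SE, edgeR adjusted p = 2.13e-05) at 2 h and by 0.81 ± 0.21 (SE, edgeR adjusted p = 0.00297) at 4 h. In WT it changed by 1.79 ± 0.21 (SE, edgeR adjusted p = 1.33e-06) and by 1.57 ± 0.21 (SE, edgeR adjusted p = 4.12e-06). PIP1-3 (AT1G01620, chr1:225665-227543), the nearest relative of PIP1-4 with 85.2% identity of coding sequence, had small fold changes, as had PIP1-2. Its grf6 grf8 libraries held 337, 435, 395 and 515 CPM at 0 h, 878, 741, 901 and 668 CPM at 2 h and 504, 689.7, 939 and 1365 CPM at 4 h. Its WT libraries held 282, 289.9, 300.2 and 388 CPM at 0 h, 1043, 609, 742 and 560.4 CPM at 2 h and 1079.8, 1458, 909 and 461 CPM at 4 h. The 4 h range overlapped with 0 h in grf6 grf8, and the other ranges did not reach the 0 h values. Its log2 fold changes were 0.92 ± 0.30 (SE, edgeR adjusted p = 0.0172) and 1.06 ± 0.30 (SE, edgeR adjusted p = 0.006) in grf6 grf8, and 1.23 ± 0.30 (SE, edgeR adjusted p = 0.00262) and 1.63 ± 0.31 (SE, edgeR adjusted p = 0.000161) in WT. The 2 calls in grf6 grf8 were lost without some single libraries, at adjusted p from 0.0515 to 0.053.

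**Figure D2:**
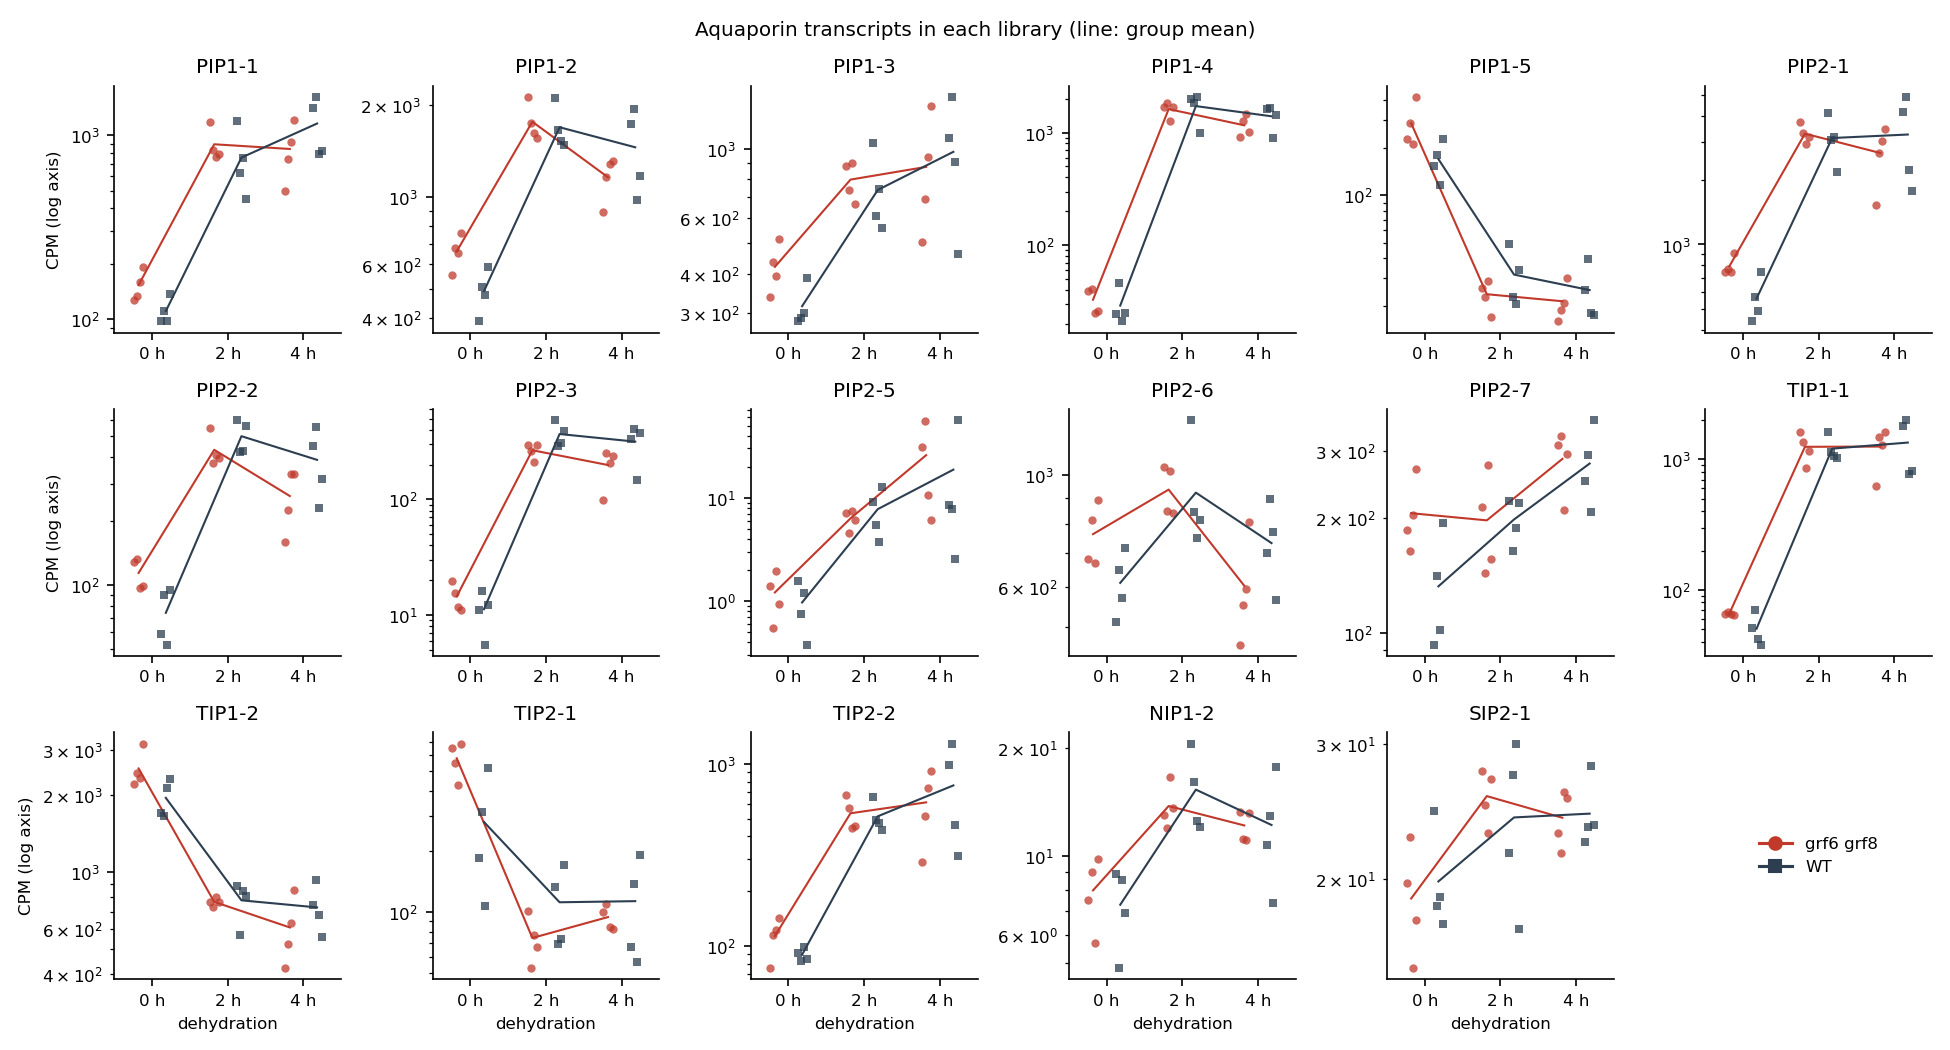
Level of 17 aquaporins in every library, in CPM on a log axis, by hours of dehydration. Red circles are grf6 grf8 libraries, dark squares are WT libraries and lines join group means. The 0 h points of PIP1-4 lie between 21.2 and 46.0 CPM and its later points between 892 and 2055 CPM, while PIP1-5 and TIP1-2 run downward.

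In the PIP2 group, PIP2-1, PIP2-2, PIP2-3 and PIP2-5 rose at both times in both genotypes. PIP2-1 (AT3G53420, chr3:19803473-19805730), the substrate of several kinases in guard cells and veins, held 743, 764, 740.3 and 913 CPM at 0 h, 3738, 3307, 2961 and 3178 CPM at 2 h and 1531, 2669, 3043 and 3455 CPM at 4 h in grf6 grf8. In WT it held 437, 569, 488 and 739.8 CPM at 0 h, 4123, 3071, 3194 and 2191 CPM at 2 h and 4182, 4879, 2219.8 and 1782 CPM at 4 h. All dehydrated libraries stood above all 0 h libraries. PIP2-1 changed by 2.06 ± 0.30 (SE, edgeR adjusted p = 1.66e-05) and 1.76 ± 0.30 (SE, edgeR adjusted p = 5.41e-05) in grf6 grf8 on the log2 scale. In WT the changes were 2.49 ± 0.31 (SE, edgeR adjusted p = 1.9e-06) and 2.55 ± 0.31 (SE, edgeR adjusted p = 9.89e-07).

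PIP2-2 (AT2G37170, chr2:15613368-15615022) and PIP2-3 (AT2G37180, chr2:15617635-15619155) are neighbours on chromosome 2, 2612 bases apart, with 94.8% identity of coding sequence and an identical run of 242 bases. Reads may therefore have been split between them, and their separate values are uncertain. PIP2-2, a water channel of roots as well as leaves, read 128, 132, 96.7 and 99.0 CPM at 0 h, 549, 377, 409 and 397 CPM at 2 h and 159, 225, 332 and 333 CPM at 4 h in grf6 grf8. WT leaves gave 59.2, 90.1, 52.5 and 94.4 CPM at 0 h, 595, 424, 429 and 559 CPM at 2 h and 452, 554, 229.7 and 317 CPM at 4 h. PIP2-3 read 19.5, 15.5, 11.8 and 11.1 CPM at 0 h, 297, 260.3, 213 and 295 CPM at 2 h and 99.8, 251, 205 and 237 CPM at 4 h in grf6 grf8. The 2 h and 4 h libraries of both genes stood above the 0 h libraries of the same genotype. WT leaves gave 11.1, 16.0, 5.54 and 12.2 CPM at 0 h, 482, 289, 307 and 392.3 CPM at 2 h and 335, 406, 148 and 375 CPM at 4 h for PIP2-3. Again no dehydrated WT library overlapped with 0 h. The log2 fold changes of PIP2-2 were 1.92 ± 0.28 (SE, edgeR adjusted p = 1.19e-05) and 1.20 ± 0.27 (SE, edgeR adjusted p = 0.000874) in grf6 grf8, and 2.76 ± 0.28 (SE, edgeR adjusted p = 1.92e-07) and 2.39 ± 0.28 (SE, edgeR adjusted p = 6.48e-07) in WT. Those of PIP2-3 were 4.20 ± 0.37 (SE, edgeR adjusted p = 2.44e-08) and 3.77 ± 0.36 (SE, edgeR adjusted p = 3.89e-08) in grf6 grf8, and 5.03 ± 0.38 (SE, edgeR adjusted p = 3.56e-09) and 4.81 ± 0.38 (SE, edgeR adjusted p = 3.14e-09) in WT.

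PIP2-5 (AT3G54820, chr3:20301759-20304309) was low in undehydrated leaves. The grf6 grf8 libraries had 1.42, 0.557, 1.95 and 0.944 CPM at 0 h, 7.16, 4.55, 7.45 and 6.14 CPM at 2 h and 31.2, 55.3, 10.7 and 6.09 CPM at 4 h. Those of WT had 1.55, 0.747, 1.21 and 0.381 CPM at 0 h, 9.09, 5.41, 3.76 and 12.8 CPM at 2 h and 8.62, 7.73, 2.57 and 56.0 CPM at 4 h. Its dehydrated libraries all stood above the 0 h libraries, and 3 of the 8 at 4 h, the first and second of grf6 grf8 and the fourth of WT, lay at 31.2 CPM or more while the others were at or below 10.7. PIP2-5 changed by 2.37 ± 0.79 (SE, edgeR adjusted p = 0.0197) and 4.40 ± 0.83 (SE, edgeR adjusted p = 0.000168) in grf6 grf8. It changed by 2.97 ± 0.81 (SE, edgeR adjusted p = 0.00545) and 4.25 ± 0.84 (SE, edgeR adjusted p = 0.000262) in WT. At 4 h the change was 3.69 (edgeR adjusted p = 0.000809) without the second grf6 grf8 library and 2.65 (edgeR adjusted p = 0.00186) without the fourth WT library. The 2 h call in grf6 grf8 was lost without the second library of 0 h (edgeR adjusted p = 0.0538). Without the 5 libraries high in markers of dividing cells, the 4 h changes were 2.89 (edgeR adjusted p = 0.000363) in grf6 grf8 and 2.66 (edgeR adjusted p = 0.00017) in WT.

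PIP2-6 (AT2G39010, chr2:16291280-16294101) and PIP2-7 (AT4G35100, chr4:16708361-16710407) had smaller fold changes than the PIP2 genes above. PIP2-6 had 683, 814, 668 and 891 CPM at 0 h, 1038, 850.0, 1018 and 840.5 CPM at 2 h and 461, 552, 595 and 807 CPM at 4 h in grf6 grf8. It had 511, 649, 571 and 716 CPM at 0 h, 1285, 845, 752 and 814 CPM at 2 h and 699.9, 895, 773 and 566 CPM at 4 h in WT. Its ranges overlapped with 0 h except at 2 h in WT. Against 0 h it was called only there, at 0.59 ± 0.20 (SE, edgeR adjusted p = 0.0203), and not in grf6 grf8 at 2 h, at 0.29 ± 0.20 (SE, edgeR adjusted p = 0.242). The WT call was lost under 4 settings, with a value of 0.39 (edgeR adjusted p = 0.145) without the first WT library of 2 h. The 4 h values were -0.34 ± 0.20 (SE, edgeR adjusted p = 0.16) in grf6 grf8 and 0.26 ± 0.20 (SE, edgeR adjusted p = 0.286) in WT.

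PIP2-7, a channel that TSPO and autophagy remove from the plasma membrane, had 187, 164, 204 and 269.9 CPM at 0 h, 214, 144, 276 and 156 CPM at 2 h and 311, 329, 210.3 and 294 CPM at 4 h in grf6 grf8. It had 93.0, 140.5, 102 and 194 CPM at 0 h, 222, 164, 188 and 219 CPM at 2 h and 251, 294, 208 and 361 CPM at 4 h in WT. Only the 4 h WT libraries stood clear of the 0 h libraries of their genotype. It was called there, at 1.07 ± 0.25 (SE, edgeR adjusted p = 0.00111), while the 4 h value in grf6 grf8 was 0.47 ± 0.24 (SE, edgeR adjusted p = 0.111). At 2 h it was not called, at -0.06 ± 0.24 (SE, edgeR adjusted p = 0.857) in grf6 grf8 and 0.58 ± 0.24 (SE, edgeR adjusted p = 0.0598) in WT. PIP2-8 stayed between 0.112 and 7.08 CPM over all 24 libraries and was not called against 0 h.

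Among the tonoplast proteins, TIP1-1, TIP2-2 and TIP2-3 rose and TIP1-2 and TIP2-1 fell, in both genotypes and at both times. TIP1-1 (AT2G36830, chr2:15445294-15446621), the gamma-TIP whose promoter is shown above, gave 65.2, 68.0, 64.9 and 64.0 CPM at 0 h, 1629, 1351, 861 and 1154 CPM at 2 h and 621, 1492, 1287 and 1617 CPM at 4 h in grf6 grf8. WT leaves gave 51.0, 70.5, 41.6 and 37.9 CPM at 0 h, 1615, 1140.4, 1053 and 1029 CPM at 2 h and 1799, 1990.1, 776 and 819 CPM at 4 h. The dehydrated libraries all stood above the 0 h libraries, none of which passed 70.5 CPM. The log2 fold changes were 4.25 ± 0.36 (SE, edgeR adjusted p = 1.66e-08) and 4.26 ± 0.36 (SE, edgeR adjusted p = 7.2e-09) in grf6 grf8. In WT they were 4.59 ± 0.36 (SE, edgeR adjusted p = 7.14e-09) and 4.74 ± 0.37 (SE, edgeR adjusted p = 2.77e-09).

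TIP1-2 (AT3G26520, chr3:9722443-9723904), its closest relative with 81.8% identity of coding sequence, moved in the opposite direction. TIP1-2 libraries of grf6 grf8 held 2210.5, 2443, 2346 and 3181 CPM at 0 h, 764, 733, 801 and 767 CPM at 2 h and 423, 525, 635 and 851 CPM at 4 h. Those of WT held 1703, 1667, 2132 and 2311 CPM at 0 h, 884, 570.4, 844 and 809 CPM at 2 h and 743, 933, 683 and 556 CPM at 4 h. Every dehydrated library stood below every 0 h library. TIP1-2 changed by -1.73 ± 0.22 (SE, edgeR adjusted p = 2.26e-06) and -2.06 ± 0.22 (SE, edgeR adjusted p = 1.53e-07) in grf6 grf8, and by -1.33 ± 0.21 (SE, edgeR adjusted p = 4.45e-05) and -1.42 ± 0.21 (SE, edgeR adjusted p = 1.41e-05) in WT.

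TIP2-1 (AT3G16240, chr3:5505360-5507050), the delta-TIP that also carries ammonia, had 652, 552, 427 and 684 CPM at 0 h, 101, 53.0, 76.8 and 67.3 CPM at 2 h and 101, 110.2, 84.5 and 83.0 CPM at 4 h in grf6 grf8. In WT it had 185, 312, 107 and 516 CPM at 0 h, 133, 69.5, 73.9 and 171 CPM at 2 h and 67.1, 137, 56.3 and 193 CPM at 4 h. The grf6 grf8 libraries of 2 and 4 h stood far below those of 0 h, while in WT the ranges overlapped and the 0 h values were widely spread. In grf6 grf8 the log2 fold change was -2.96 ± 0.44 (SE, edgeR adjusted p = 1.88e-05) at 2 h and -2.61 ± 0.43 (SE, edgeR adjusted p = 3.97e-05) at 4 h. In WT it was -1.32 ± 0.42 (SE, edgeR adjusted p = 0.0143) and -1.30 ± 0.42 (SE, edgeR adjusted p = 0.013). Without the fourth WT library of 0 h, the WT values were -0.85 at both times, with edgeR adjusted p = 0.103 at 2 h and 0.086 at 4 h, and both calls were lost. AT3G16250 overlaps TIP2-1 on the other strand and averaged 7.63 to 13.4 CPM by group. Strand was not kept by the library kit, so its reads cannot be told from those of TIP2-1.

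TIP2-2 (AT4G17340, chr4:9698940-9700472), an aquaporin of the same TIP2 branch, rose. The grf6 grf8 libraries had 75.8, 114, 122 and 142 CPM at 0 h, 672, 569, 447 and 455 CPM at 2 h and 287, 516, 737 and 919 CPM at 4 h. Those of WT had 91.3, 82.8, 98.9 and 85.1 CPM at 0 h, 662, 492, 474 and 434 CPM at 2 h and 980.4, 1292, 463 and 312 CPM at 4 h. No dehydrated library overlapped with 0 h, and the 4 h values spread widely. TIP2-2 changed by 2.24 ± 0.37 (SE, edgeR adjusted p = 5.63e-05) and 2.44 ± 0.37 (SE, edgeR adjusted p = 1.39e-05) in grf6 grf8, and by 2.53 ± 0.37 (SE, edgeR adjusted p = 1.6e-05) and 3.09 ± 0.38 (SE, edgeR adjusted p = 1.19e-06) in WT. TIP2-3, known mainly from roots, had no count in any of the 8 libraries of 0 h. It had 0.444, 1.25, 0.475 and 0.536 CPM at 2 h and 2.27, 3.32, 6.79 and 11.997 CPM at 4 h in grf6 grf8. WT libraries had 1.13, 0.618, 1.011 and 0.487 CPM at 2 h and 11.3, 16.6, 2.04 and 3.71 CPM at 4 h. All 16 dehydrated libraries held counts of TIP2-3. Set against a floor of 3 counts over the 4 libraries of 0 h, TIP2-3 was at least 16.9-fold higher at 2 h and 153-fold higher at 4 h in grf6 grf8. In WT it was at least 21.3-fold and 221-fold higher.

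The NIP genes were low in these leaves, and 4 of 9 were tested. NIP1-2 (AT4G18910, chr4:10366044-10368510), known as a carrier of aluminium malate in roots, had 7.50, 9.02, 5.69 and 9.81 CPM at 0 h, 12.98, 11.97, 16.6 and 13.6 CPM at 2 h and 13.3, 11.1, 11.1 and 13.2 CPM at 4 h in grf6 grf8. It had 8.87, 4.86, 8.55 and 6.91 CPM at 0 h, 20.6, 16.1, 12.5 and 12.02 CPM at 2 h and 10.8, 12.9, 7.36 and 17.7 CPM at 4 h in WT. The 4 h WT libraries overlapped with 0 h and the other dehydrated groups did not. Its log2 fold changes were 0.78 ± 0.24 (SE, edgeR adjusted p = 0.0122) and 0.60 ± 0.24 (SE, edgeR adjusted p = 0.0424) in grf6 grf8, and 1.07 ± 0.24 (SE, edgeR adjusted p = 0.00133) and 0.74 ± 0.24 (SE, edgeR adjusted p = 0.0149) in WT. The 4 h calls were lost under 10 settings in grf6 grf8 and 4 in WT, with adjusted p up to 0.157. NIP2-1, a lactic acid channel of oxygen-starved roots, had 6 counts at 0 h, 23 at 2 h and 62 at 4 h in the 4 libraries of grf6 grf8 each. WT libraries had 3, 26 and 50. The ratio to 0 h was 3.58 (95% counting interval 1.42 to 10.8) at 2 h and 10.6 (4.61 to 30.0) at 4 h in grf6 grf8, and 8.82 (2.70 to 45.5) and 17.9 (5.79 to 89.8) in WT, with intervals for counting error only. All 6 counts of grf6 grf8 at 0 h lay in its second library. NIP2-1 was called at 4 h in both genotypes and at 2 h in WT (edgeR adjusted p = 0.00541, 0.0025 and 0.0278). The WT call at 2 h was lost under 5 settings. NIP2-1 passed the filter mainly through 4 h, so its direction was largely fixed by how it came to be tested. Without the second grf6 grf8 library of 0 h, which leaves that group with no count, the fitted log2 fold change at 4 h was 7.03 (edgeR adjusted p = 0.000169) in place of 3.29. Without the third WT library of 0 h the WT values were 3.86 at 2 h and 4.95 at 4 h in place of 2.91 and 4.01. NIP5-1 and NIP6-1, which carry boric acid, were not called against 0 h in either genotype. AT2G34380 and AT1G80750 overlap NIP2-1 and NIP6-1 on the other strand with group means of 5.44 to 7.42 and 12.8 to 19.6 CPM, and without strand their reads cannot be told from those of the NIP genes.

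Of the SIP genes, SIP1-1 ran from 51.7 to 109.9 CPM and was not called. SIP1-2 (AT5G18290, chr5:6055028-6058368) had 2.53, 3.40, 4.495 and 3.83 CPM at 0 h, 0.0555, 0.192, 0.665 and 0.244 CPM at 2 h and 0.253, 0.241, 0.293 and 0 CPM at 4 h in grf6 grf8. It had 1.38, 1.76, 3.11 and 3.37 CPM at 0 h, 0.308, 0.0515, 0.112 and 0.146 CPM at 2 h and 0.113, 0.129, 0 and 0.176 CPM at 4 h in WT. All dehydrated libraries stood below all 0 h libraries, most of them near or at 0. SIP1-2 changed by -3.58 ± 0.66 (SE, edgeR adjusted p = 0.000179) and -4.11 ± 0.69 (SE, edgeR adjusted p = 4.23e-05) in grf6 grf8, and by -3.90 ± 0.69 (SE, edgeR adjusted p = 0.000131) and -4.41 ± 0.73 (SE, edgeR adjusted p = 4.02e-05) in WT. These rest on 511 counts over the 24 libraries. Without the third grf6 grf8 library of 2 h the first of these values was -4.36. All 4 calls stood under each alternative in which SIP1-2 was tested. It passed the filter mainly through 0 h, so its direction was largely fixed by how it came to be tested. The p-values and the standing of the calls are therefore no separate support for the fall. SIP2-1 had 19.7, 22.7, 15.3 and 17.7 CPM at 0 h, 27.7, 24.95, 22.9 and 27.0 CPM at 2 h and 22.9, 21.6, 26.0 and 25.5 CPM at 4 h in grf6 grf8. In WT it had 24.5, 18.4, 18.9 and 17.5 CPM at 0 h, 21.6, 27.3, 30.1 and 17.2 CPM at 2 h and 22.4, 23.4, 28.1 and 23.5 CPM at 4 h. The grf6 grf8 libraries of 2 h just cleared those of 0 h, and all other ranges overlapped. It was called only at 2 h in grf6 grf8, at 0.45 ± 0.16 (SE, edgeR adjusted p = 0.0257), and this call was lost under 4 settings. The overlapping gene AT3G56940 on the other strand had group means from 441 to 1213 CPM, highest at 0 h. Without strand its reads cannot be told from those of SIP2-1, so the values and the call of SIP2-1 are uncertain.

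The make-up of the family turned over with dehydration. On the authors' FPKM (fragments per kilobase and per M mapped fragments), which allow levels of different genes to be set side by side, TIP1-2 was first at 0 h and PIP2-1 at 2 and 4 h in both genotypes. TIP1-2 averaged 2112 ± 223, 620.2 ± 36.2 and 497 ± 84.0 FPKM at 0, 2 and 4 h in grf6 grf8, and 1644 ± 223, 663 ± 135 and 591 ± 71.2 FPKM in WT (SD, n = 4 each). PIP2-1 averaged 615 ± 41.9, 2489 ± 284 and 2049 ± 487 FPKM in grf6 grf8, and 441 ± 103, 2465 ± 435 and 2415 ± 871 FPKM in WT. At 0 h the range of TIP1-2 did not overlap with the next member, PIP2-1 in grf6 grf8 and PIP2-6 in WT. At 2 h PIP2-1 stood clear of PIP1-2 in both genotypes. At 4 h the group ranges of PIP2-1 and TIP1-1 overlapped, but PIP2-1 was higher than TIP1-1 within every library of both genotypes. The ranges of nearly all neighbours further down the order overlapped as well.

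As a share of summed family FPKM, TIPs made up 49.6 ± 0.972%, 23.5 ± 1.46% and 27.2 ± 2.44% at 0, 2 and 4 h in grf6 grf8, and 49.1 ± 2.52%, 23.9 ± 2.17% and 25.7 ± 2.13% in WT. PIP1 shares averaged 21.7%, 35.6% and 34.2% in grf6 grf8 and 21.4%, 34.6% and 35.1% in WT. PIP2 shares averaged 26.9%, 39.7% and 37.1% in grf6 grf8 and 27.1%, 40.4% and 37.9% in WT. In every dehydrated library the TIP share was lower, and both PIP shares higher, than in any library of 0 h. The ratio of TIP1-1 to TIP1-2 in FPKM averaged 0.0298, 1.86 and 2.33 at 0, 2 and 4 h in grf6 grf8 and 0.0307, 1.80 and 2.03 in WT. The ratio of PIP1-4 to PIP1-5 averaged 0.0860, 49.3 and 39.0 in grf6 grf8 and 0.122, 43.1 and 40.5 in WT. That of TIP2-2 to TIP2-1 averaged 0.239, 8.77 and 8.003 in grf6 grf8 and 0.541, 6.15 and 9.91 in WT. Each of these pairs had 1 member that rose and 1 that fell. The whole family took 0.685 ± 0.0634%, 1.26 ± 0.162% and 1.07 ± 0.200% of all counts in grf6 grf8 leaves and 0.505 ± 0.0809%, 1.3001 ± 0.184% and 1.27 ± 0.325% in WT leaves at 0, 2 and 4 h.

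**Figure D3:**
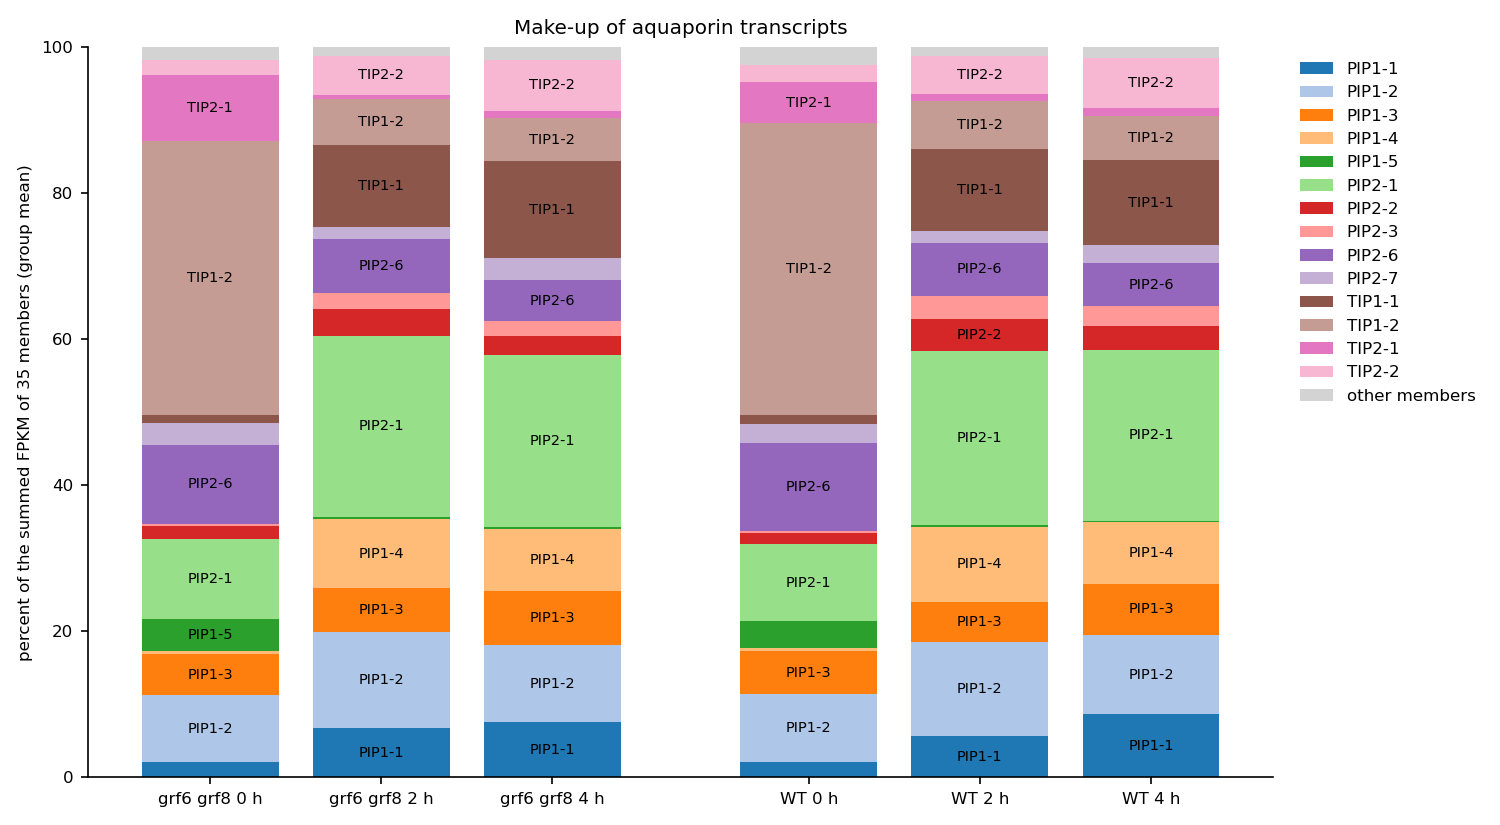
Stacked bars of the percent of summed FPKM of the 35 aquaporins held by the members with larger shares. All other members are joined in grey. Values are means of 4 libraries per group, with grf6 grf8 groups left of WT groups. TIP1-2 held 37.5% at 0 h and 5.84% at 4 h in grf6 grf8, and 39.9% and 6.03% in WT.

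Between 2 and 4 h few members were called, at shares near those of all genes. In grf6 grf8, TIP2-3 and PIP2-8 rose and PIP2-6 fell (3 of 24), where 12.1% of all genes were called, 6.34% higher and 5.79% lower. In WT TIP2-3 rose (1 of 24), where 4.69% of all genes were called, 2.57% higher and 2.12% lower. That share of all genes moved with single libraries and was 18.2% without the fourth WT library of 4 h, and 2.03%, 2.84% and 2.81% without the first, the second and the third. It was 2.21% without the second WT library of 2 h. In grf6 grf8 it was 6.88%, 7.68% and 7.12% without the first, the second and the fourth library of 2 h. TIP2-3 changed by 3.15 ± 0.69 (SE, edgeR adjusted p = 0.00861) in grf6 grf8 and 3.37 ± 0.69 (SE, edgeR adjusted p = 0.0115) in WT. It passed the filter mainly through 4 h, so the direction of this change was largely fixed by how it came to be tested. PIP2-8 changed by 3.09 ± 0.96 (SE, edgeR adjusted p = 0.0385) and PIP2-6 by -0.63 ± 0.20 (SE, edgeR adjusted p = 0.0416) in grf6 grf8. The WT call of TIP2-3 was lost with only the groups compared (edgeR adjusted p = 0.0829). The calls of PIP2-8 and PIP2-6 were lost under 8 and 12 settings, and without the 5 libraries high in markers of dividing cells PIP2-8 was at 1.06 (edgeR adjusted p = 0.213).

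Between the genotypes, no aquaporin was called at 0, 2 or 4 h. All adjusted p-values of the members were 1 in the edgeR quasi-likelihood test, and DESeq2 called none either. Over all genes 0.0265%, 0.0212% and 0.0159% were called at the 3 times. Called higher in grf6 grf8 were 0.00531% at 0 h, 0% at 2 h and 0.00531% at 4 h, and called lower were 0.0212% at 0 h, 0.0212% at 2 h and 0.0106% at 4 h. On the average over times no member was called, where 0.0849% of all genes were, 0.0265% higher and 0.0584% lower. At an unadjusted p under 0.05, 5 of 23 members passed at 0 h, where TIP2-3 had no count in either genotype, and 1 of 24 at 2 h and 2 of 24 at 4 h, against 2.90%, 2.72% and 3.88% of all genes. At 0 h, 20 of the 23 had a fold change above 0, as had 52.8% of all genes, with a median of 0.38 on the log2 scale. At 2 h 10 of 24 were above 0 and at 4 h 6 of 24, with medians of -0.05 and -0.26. The medians of all genes were 0.013, -0.005 and 0.011 at the 3 times.

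The libraries of grf6 grf8 and WT did not overlap for 2 members at 0 h, both higher in grf6 grf8, where 1.74% of all genes stood apart in that direction and 1.65% in the other. No member stood apart at 2 h, where 1.34% of all genes were apart and higher and 1.66% apart and lower, or at 4 h, where these shares were 0.541% and 1.05%. PIP2-1 averaged 789.9 ± 82.6 CPM in grf6 grf8 and 558 ± 133 CPM in WT at 0 h (SD, n = 4 each), a log2 fold change of 0.50 ± 0.29 (SE, edgeR adjusted p = 1). PIP2-2 averaged 114 ± 18.8 CPM in grf6 grf8 and 74.0 ± 21.3 CPM in WT, at 0.62 ± 0.27 (SE, edgeR adjusted p = 1). The largest difference of the family at 0 h was that of TIP2-1, with 579 ± 116 CPM in grf6 grf8 and 279.9 ± 178 CPM in WT, at 1.05 ± 0.41 (SE, edgeR adjusted p = 1). Its groups overlapped, since the fourth WT library reached 516 CPM. By number, 11 of 23 members were higher in the grf6 grf8 library of all 4 same-numbered pairs at 0 h and 0 were lower in all 4, against 10.2% and 8.73% of all genes. The labels do not give this pairing, which was picked on the same data, so the counts are descriptions only. The 11 included PIP1-5, PIP2-1, PIP2-2, PIP2-7 and TIP2-1. In the 4 pairs TIP2-1 stood at 652 CPM in grf6 grf8 against 185 CPM in WT, 552 CPM in grf6 grf8 against 312 CPM in WT, 427 CPM in grf6 grf8 against 107 CPM in WT and 684 CPM in grf6 grf8 against 516 CPM in WT. With the number as a block in a fit of the 0 h libraries alone, the log2 fold changes were 0.73 for PIP1-5, 0.51 for PIP2-1, 0.64 for PIP2-2, 0.66 for PIP2-7 and 1.25 for TIP2-1, with edgeR adjusted p from 0.0655 for PIP1-5 to 0.205 for PIP2-2, and no member was called, where 0.0695% of all genes were. NIP6-1 was at -1.80 ± 0.65 at 2 h (SE, edgeR adjusted p = 1), with 18.1 CPM in the fourth WT library and at most 3.90 in the other 7.

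The size of the response was compared as the difference of the log2 fold change, grf6 grf8 minus WT. No member was called at 2 h or 4 h, and 0.00531% of all genes were called at each time. Without TIP2-3, which had no count at 0 h, the difference was below 0 for 20 of 23 members at 2 h and 18 of 23 at 4 h, where 51.9% and 50.4% of all genes were below 0. Its median over these 23 was -0.40 at 2 h and -0.60 at 4 h, with -0.014 and -0.002 over all genes. An unadjusted p under 0.05 was reached by 3 of them at 2 h and 8 at 4 h, against 2.48% and 2.38% of all genes. These differences and the comparison at 0 h rest on the same 0 h libraries.

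PIP2-2 had the largest difference at 4 h relative to its SE. Its response was 1.20 in grf6 grf8 and 2.39 in WT, a difference of -1.19 ± 0.38 (SE, edgeR adjusted p = 1). TIP2-1 fell by 2.96 at 2 h in grf6 grf8 and by 1.32 in WT on the log2 scale, a difference of -1.64 ± 0.58 (SE, edgeR adjusted p = 1). PIP1-5 differed by -1.17 ± 0.43 at 2 h and -0.99 ± 0.44 at 4 h (SE, edgeR adjusted p = 1 for both). Without the 5 libraries high in markers of dividing cells, the difference was -0.83 for PIP2-2 at 4 h and -1.27 for TIP2-1 at 2 h. For PIP1-5 it was then -1.20 at 2 h and -0.94 at 4 h. Those 5 include the first and second grf6 grf8 libraries of 4 h and the fourth WT library of 4 h. The part of these markers in the differences was not tested. For PIP2-2 the smaller rise went with the higher level at 0 h in grf6 grf8, and for TIP2-1 and PIP1-5 the deeper fall did, as the levels by library above show. At 4 h PIP2-2 averaged 262 ± 85.6 CPM in grf6 grf8 and 388 ± 143 CPM in WT, and TIP2-1 averaged 94.6 ± 13.2 CPM in grf6 grf8 and 113 ± 64.0 CPM in WT.

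**Figure D4:**
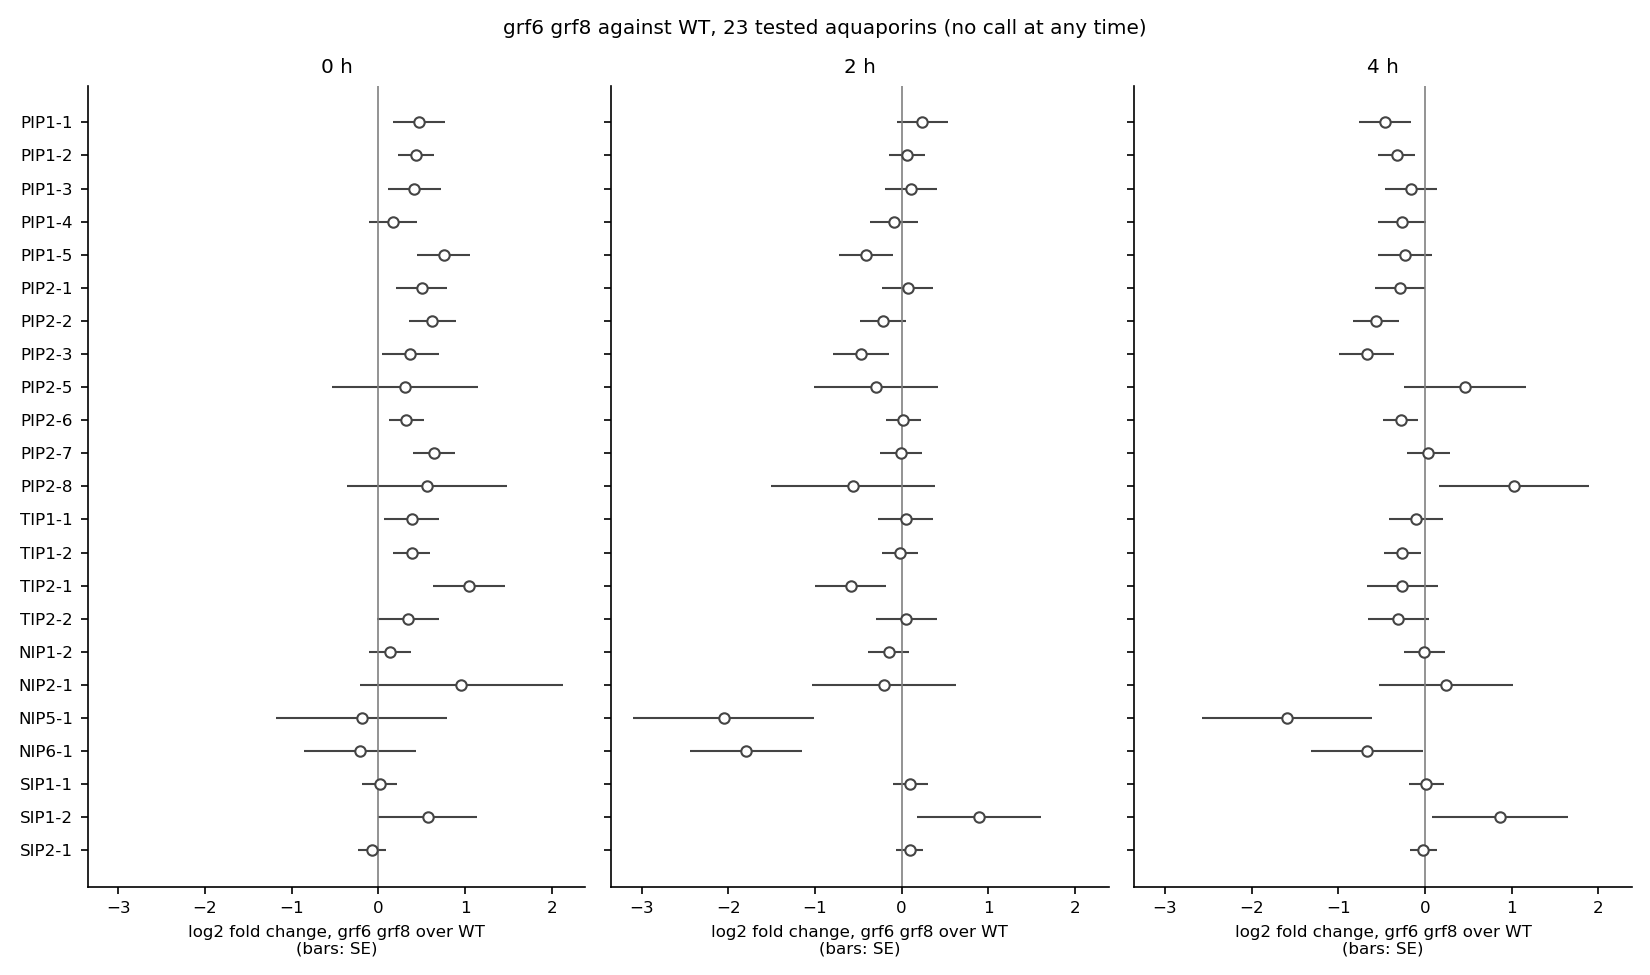
Log2 fold change of grf6 grf8 over WT with SE bars at 0, 2 and 4 h for 23 tested aquaporins, TIP2-3 left out for its lack of counts at 0 h. Most points of 0 h lie right of 0, with TIP2-1 at 1.05, and most points of 4 h lie left of it, and none was called.

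Of 14 genes known to act on aquaporin proteins, 6 rose and 2 fell at 2 h in grf6 grf8, and 6 and 2 in WT. At 4 h 5 rose and 3 fell in grf6 grf8, and 6 and 3 in WT, and none was called between the genotypes at any time. These 8 of 14 at 2 h, and 8 and 9 of 14 at 4 h, stand beside 43.5% and 42.3% of all genes called at 2 h and 51.2% and 50.0% at 4 h. TSPO, the abscisic acid induced membrane protein that leads PIP2-7 to degradation, averaged 1.85 ± 0.724, 52.2 ± 13.7 and 257 ± 68.6 CPM at 0, 2 and 4 h in grf6 grf8, and 1.33 ± 0.978, 39.8 ± 16.7 and 207 ± 99.97 CPM in WT (SD, n = 4 each). Its log2 fold changes were 4.82 ± 0.52 and 7.12 ± 0.57 in grf6 grf8, and 4.92 ± 0.53 and 7.30 ± 0.58 in WT (SE). The largest of its edgeR adjusted p-values was 3.51e-07. The 14-3-3 genes GRF4 and GRF10, whose products act on PIP2-1, rose at both times in both genotypes. GRF4 changed by 0.60 and 0.44 in grf6 grf8 and 0.62 and 0.45 in WT. GRF10 changed by 0.46 and 0.34 in grf6 grf8 and 0.43 and 0.39 in WT. QSK1, a receptor kinase that works with SIRK1 on PIPs, changed by 0.98 and 0.94 in grf6 grf8 and 1.28 and 1.02 in WT.

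BAK1, a co-receptor kinase that phosphorylates PIP2-1, was called higher except at 4 h in grf6 grf8, and SYP121, a syntaxin that delivers PIPs to the plasma membrane, rose at 2 h, at 0.75 in grf6 grf8 and 0.53 in WT. OST1, the drought-activated kinase of guard cells, rose at 4 h, at 0.94 in grf6 grf8 and 0.94 in WT. RMA1 and RMA2 encode ubiquitin ligases of a family known in pepper to target aquaporins for degradation. RMA1 changed by -1.20 and -1.47 in grf6 grf8 and by -1.31 and -1.08 in WT. RMA2 changed by -1.12 and -1.015 in grf6 grf8 and by -1.33 and -0.79 in WT. VAMP711 fell at 4 h, at -0.56 in grf6 grf8 and -0.49 in WT, and SIRK1, CPK7, SYP61 and RMA3 were not called.

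Some low members reached their highest levels in libraries with high markers of dividing cells. The score of 11 genes of dividing cells, a mean of log2(CPM + 0.5), was above 1 in 5 libraries: the first of grf6 grf8 at 0 h, the first and second of grf6 grf8 at 4 h, and the fourth of WT at 2 h and at 4 h. It lay between 1.07 and 2.37 in these and reached at most 0.722 in the other 19. PIP2-8 ran from 1.37 to 7.08 CPM in the 5 and from 0.112 to 1.29 CPM in the 19. How many of all genes separated the 5 from the 19 was not counted. PIP2-5 ran from 1.42 to 56.0 CPM in the 5 and from 0.381 to 10.7 CPM in the 19, and its 1.42 CPM, in the grf6 grf8 library of 0 h among the 5, was below every dehydrated library. NIP5-1, the boric acid channel, ran from 1.301 to 12.9 CPM against 0.0487 to 1.77 CPM, and NIP6-1, which carries boric acid to young tissue, from 1.98 to 18.1 CPM against 0.943 to 3.95 CPM. The highest library of each of these 4 members was among the 5. The only other tested member with its highest library there was the abundant PIP2-7. It ran from 187 to 361 CPM in the 5 and from 93.0 to 294 CPM in the 19. Without the 5 its change at 4 h in WT was 0.91 (edgeR adjusted p = 0.00672) in place of 1.07. The part of dividing cells in these levels was not tested. The summed level of the 11 marker genes ran from 8.50 to 21.7, 7.28 to 15.4 and 10.5 to 61.1 CPM at 0, 2 and 4 h in grf6 grf8, and from 7.65 to 12.6, 7.47 to 21.0 and 7.999 to 53.9 CPM in WT.

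**Figure D5:**
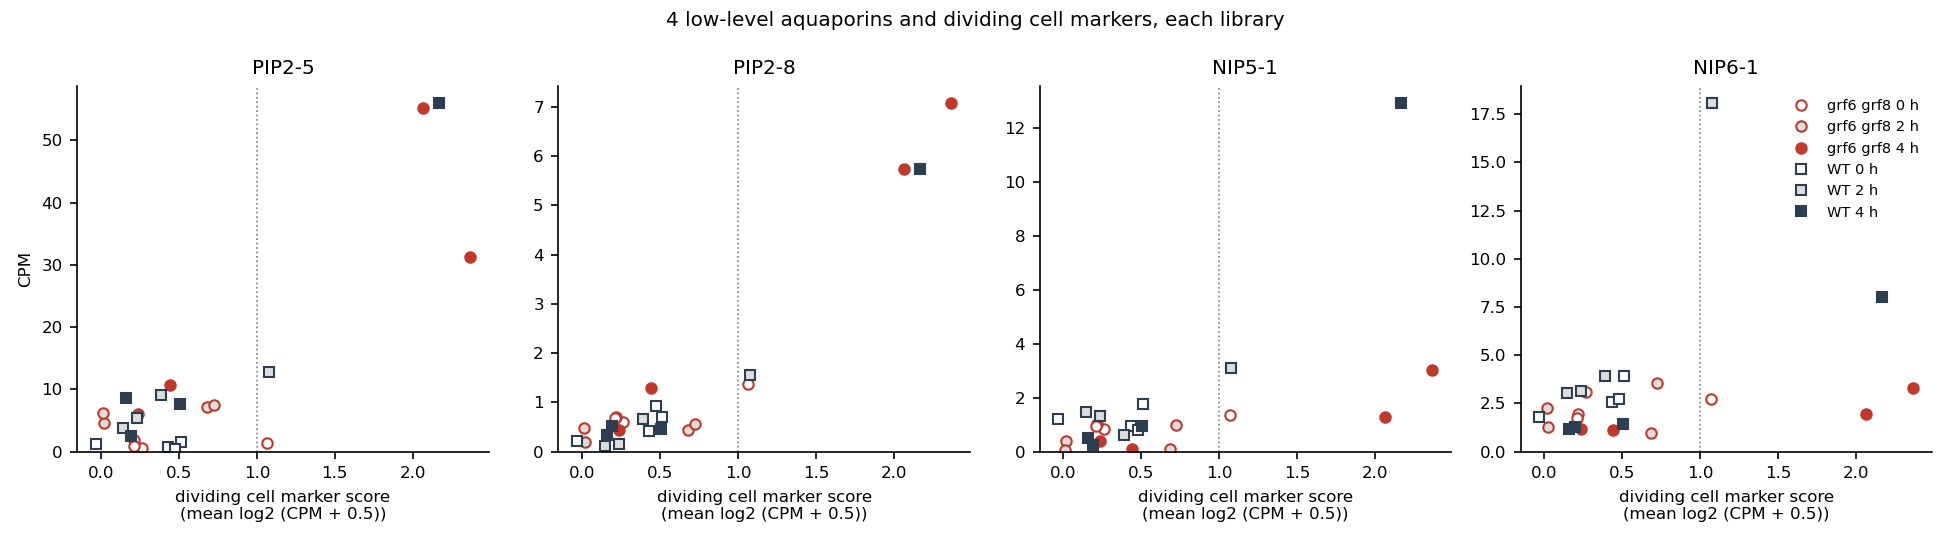
CPM of PIP2-5, PIP2-8, NIP5-1 and NIP6-1 in each of the 24 libraries against the dividing cell marker score, the mean log2(CPM + 0.5) of 11 genes, with a dotted line at 1. The 5 libraries right of the line hold the highest value of each gene, up to 56.0 CPM for PIP2-5 and 18.1 CPM for NIP6-1.

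The 11 members that were not tested are known mostly from other organs. NIP4-1 and NIP4-2, channels of pollen, had no count in any library, and a count of 0 allows up to 3 counts or 0.00655 CPM over the 24 libraries. TIP1-3 and TIP5-1, also of pollen, had 1 and 8 counts over all libraries. TIP3-1 and TIP3-2, of seed storage vacuoles, had 13 and 14 counts. NIP1-1 had 2 counts and TIP4-1 had 45. The root channel PIP2-4 had 92 counts with at most 18 in a library, NIP3-1 had 67 and NIP7-1, a boric acid channel of anthers, had 113. None of the 11 passed 18 counts in any library. By position, all 13 PIP genes had 4 exons and 3 introns in the RefSeq annotation, and the 35 genes were spread over the 5 chromosomes as 5, 8, 9, 8 and 5. NIP4-1 and NIP4-2 were the second pair of neighbours, 1989 bases apart with 88.2% identity of coding sequence.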

How the data were processed

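Each deposited file gives, per gene of 1 library, an expected count and an FPKM value. The submitters' processing notes list RSEM, HISAT2, StringTie 1.3.1, Bowtie2 2.2.8 and fastp 0.18.0 as well as edgeR and DESeq2, and the TAIR10 build. The part each played is not given in the sources used here. The deposited expected counts are estimated counts per gene that the authors left unscaled, and they were whole numbers as deposited. The deposited FPKM values were scaled by the authors to gene length and library size, and they were used only to set levels of different genes side by side. Per the labels' protocols, polyadenylated RNA was made into libraries with a kit that does not keep strand.

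The tests used edgeR 4.0.16 under R 4.3.3. Of 27664 genes, 18841 passed filterByExpr (minimum count 10, minimum total 15) on the 6 groups, libraries were scaled by TMM (factors 0.843 to 1.28), and CPM use the scaled totals. A single fit of 6 group means over the 24 libraries served 12 comparisons. Their p-values are from edgeR's two-sided quasi-likelihood F test with Benjamini-Hochberg adjustment over all 18841 genes, and calls were made at adjusted p under 0.05. The SE is the log2 fold change divided by the root of the F statistic. For groups of 4 libraries the smallest exact two-sided permutation p is 0.0286, so none is used. Values in every library are given for 17 members that reached a mean of 10 CPM in a group and were called in a comparison, and for TIP2-3 and SIP1-2, which were called at lower levels and were added after their values were seen. Alternatives were DESeq2 1.42.0 with the Wald test, other scaling, other filters, only the groups compared, a replicate block and leaving out each library. Leaving out 5 libraries by a marker score, and a replicate block in the 0 h groups alone, were added after seeing the data. The labels do not say that a replicate number marks a shared plant or batch. Deviations of same-numbered libraries from their group means were correlated above 0.1 for all 4 numbers in 1 of the 15 pairs of groups. That pair was grf6 grf8 and WT at 0 h (r 0.370, 0.117, 0.338 and 0.302), and same-numbered libraries are compared as pairs there only. The choice of pairs was made on these same data and differently numbered libraries were not correlated, so it does not establish a pairing. The replicate block alternative used the numbers in a fit of all 24 libraries and thus in every comparison. The members and gene lists were chosen with earlier results of these data known. The pipeline was tested on simulated data.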

Additional observations from a re-analysis of the deposited data

Results flagged for a closer look

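Among 142 groups of 4 libraries, 1 for each member and group with counts to examine, 11 held a library whose gap to the nearest of the other 3 exceeded Dixon's 95% critical value as a share of the group's range. Chance gives about 1 such group in 20. Of these 11, 4 were the fourth WT library of 4 h and 1 the fourth WT library of 2 h, both high in markers of dividing cells. In that WT library of 4 h, PIP2-5 was at 55.97 CPM (others 2.57 to 8.62), PIP2-8 at 5.734 CPM (others 0.338 to 0.525), NIP5-1 at 12.92 CPM (others 0.234 to 0.966) and NIP6-1 at 8.028 CPM (others 1.18 to 1.42). In the WT library of 2 h, NIP6-1 was at 18.11 CPM (others 3.03 to 3.90). PIP2-8 stood at 1.369 CPM in the first grf6 grf8 library of 0 h (others 0.612 to 0.704), also 1 of the 5 libraries high in those markers. Abundant members gave 3 more. PIP1-1 was at 1188 CPM in the first grf6 grf8 library of 2 h (others 765 to 827), PIP2-1 at 912.9 CPM in the fourth grf6 grf8 library of 0 h (others 740.3 to 764), and PIP1-4 at 45.96 CPM in the second WT library of 0 h (others 21.2 to 25.3). The last 2 rest on few counts: TIP2-3 was at 1.245 CPM in the second grf6 grf8 library of 2 h (others 0.444 to 0.536), and NIP2-1 at 0.334 CPM in the second grf6 grf8 library of 0 h, with no count in the other 3.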

How the results depend on the processing

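Of the members' fold changes recomputed under the alternatives, 1573 kept direction and side of the threshold, 58 lost the call and none reversed. The 1573 include differences between the genotypes and between their responses, which were not called in the main fit and had no call to lose. The 58 fell on 13 calls, among them TIP2-1, PIP2-6 and NIP2-1 in WT and PIP1-3, SIP2-1 and NIP1-2 in grf6 grf8. Against 0 h, leaving out single libraries gave 11 to 13 members higher at 2 h and 12 to 13 at 4 h in grf6 grf8, and 12 to 14 and 13 to 15 in WT. The members lower were 4 and 4 to 5 in grf6 grf8, and 3 to 4 at both times in WT. The share of all genes called in each of these fits is not set beside the counts, which are descriptions only. Counts between 4 and 2 h moved most. In grf6 grf8 the 2 members higher became 0 under the stricter filter, 1 with only the groups compared and 1 without the 5 libraries high in dividing cell markers, and 1 to 3 when single libraries were left out. The 1 member lower became 0 with DESeq2 size factors, without a filter, with a replicate block, with only the groups compared and without the 5 libraries, 2 with DESeq2 and with the stricter filter, and 0 to 1 without single libraries. In WT the 1 member higher became 0 under the stricter filter and with only the groups compared. The 0 members lower became 1 without the 5 libraries, and 0 to 1 without single libraries, where NIP6-1 was called without the fourth WT library of 4 h. The cause was not tested. Over all genes, the count between 4 and 2 h moved from 2286 to 1312 in grf6 grf8 and from 884 to 37 in WT with only the groups compared, to 5861 and 4010 without the 5 libraries, to between 1318 and 2055 in grf6 grf8 and between 388 and 3455 in WT without single libraries, and to 1663 in WT with DESeq2. No member was called between genotypes or in the difference of the responses under any alternative run. Over all groups, 21 of 60 same-numbered pairs of libraries had deviations correlated above 0.1, and the 60 ran from -0.805 to 0.626. All 4 numbers passed 0.1 only between the genotypes at 0 h, which does not show that the numbers mark pairs. In that comparison 0 members were called with a replicate block in either fit. With the replicate block 13 members were higher and 4 lower at 2 h and 14 and 4 at 4 h in grf6 grf8, and 14 and 4 at both times in WT. Of all genes, 42.0% were called at 2 h and 49.7% at 4 h in grf6 grf8 in that fit, and 40.7% and 48.2% in WT. The depth leaves 11 of the 35 members with too few counts to test, and changes of NIP2-1, NIP5-1, PIP2-8, SIP1-2 and TIP2-3 rest on few counts.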
